A study of Mus musculus with 8 samples.

Results

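Hmgcs1, Idi1, Fdps, Fdft1, Sqle, Lss and Cyp51 encode 7 enzymes of cholesterol synthesis, and their RNA was measured in mouse pancreatic cancer cells exposed to extracellular vesicles (EVs) from T cells. The 7 genes were chosen by name from a table of 42687 genes, each was matched by its Ensembl identifier, and each passed the filter on low counts, as did 15197 genes in all. The cells are a clone of low immunogenicity from KPCY mice, whose alleles include Trp53LSL-R172H/+, Pdx1-Cre and Rosa26YFP/YFP, so that Cre driven by the Pdx1 promoter switches on mutant Trp53 in the pancreatic lineage. All groups share these alleles, although the genotype label reads WT for every sample, and every group is the same clone, so the data speak for that clone alone. There were 4 groups of 2 libraries: cells given 15 µg/mL of ATEVs pretreated with DNase (DNase-ATEV), cells given 15 µg/mL of ATEVs (EVs of activated T cells), cells given 30 µg/mL of NTEVs (EVs of non-activated T cells), and cells given PBS. Exposure, harvest and reseeding were repeated 8 times. The ATEV and NTEV doses were set to carry the same amount of EV DNA, so these groups differ in vesicle dose as well as in source.

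Cells build cholesterol from acetyl-CoA through mevalonate. Hmgcs1 works at the entry, Idi1 and Fdps make the isoprenoid units and join them, Fdft1 commits farnesyl diphosphate to squalene, and Sqle, Lss and Cyp51 turn squalene into the first sterols. Transcription of these genes is driven together by SREBP-2, a membrane-bound factor that is released when sterols run low, with NF-Y and Sp1 as frequent partners at the promoters. Tumour cells draw on the pathway for membranes, and on its isoprenoids for the anchoring of prenylated proteins.

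The upstream sequences of Hmgcs1, the entry enzyme, and Idi1, the gene with the lowest level in EV-treated cells relative to PBS, are shown with the letters that SREBP-2 and NF-Y are known to read. The sterol regulatory element was matched in Hmgcs1 but not in Idi1, and NF-Y boxes in both. Each covers the 250 bases before the annotated start (RefSeq, GRCm38.p6, plus strand, chr13:119690101-119690350 for Hmgcs1 and chr13:8885356-8885605 for Idi1). The submitters' processing notes name mm9, and the sequences were matched by gene symbol. Capitals mark the sterol regulatory element TCACNCCAC and the NF-Y box CCAAT, or ATTGG on the other strand.
Hmgcs1: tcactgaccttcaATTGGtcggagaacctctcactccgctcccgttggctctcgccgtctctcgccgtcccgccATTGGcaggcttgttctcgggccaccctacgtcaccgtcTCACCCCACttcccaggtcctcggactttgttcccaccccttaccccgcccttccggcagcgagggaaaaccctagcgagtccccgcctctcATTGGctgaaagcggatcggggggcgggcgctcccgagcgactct
Idi1: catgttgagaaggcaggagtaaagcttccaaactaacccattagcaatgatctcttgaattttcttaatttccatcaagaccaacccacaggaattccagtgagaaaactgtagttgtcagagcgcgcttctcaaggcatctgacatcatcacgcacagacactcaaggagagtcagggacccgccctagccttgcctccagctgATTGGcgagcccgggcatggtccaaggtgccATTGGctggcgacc
A promoter entry was matched for 4 of the 7 genes: Hmgcs1, Idi1, Cyp51 and Lss. In windows of 300 bases that add 50 bases after the start, searched on both strands, the sterol regulatory element was found in 1 of the 4 (Hmgcs1, at -137), against 1.24% of 32851 promoters. CCAAT was found in 4 of 4, against 37.4% of promoters, and the GC box GGGCGG, which Sp1 reads, in 4 of 4, against 35.7%. Of 14 promoters matched for 11 other enzymes of the pathway, 0 held the sterol regulatory element, 10 CCAAT and 11 the GC box. No motif overlapped another in the capitals printed. These are matches of letters, and a window without a match holds no information on the factor.

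Library totals lay between 34385326 counts (PBS library 2) and 52451398 counts (PBS library 1). Ductal epithelial markers summed to 8314 to 11161 CPM (counts scaled to a library of fixed size) with 10 of 10 detected above the filter. Their levels were unequal: Krt8 lay at 2045 to 2681 CPM, but Sox9 at 3.82 to 9.11, Cldn4 at 0.0230 to 2.04 and Onecut1 at 0.0968 to 0.345 CPM. The 14 T cell markers summed to 2.31 to 6.69 CPM, with 3 at 0 in every library, and the 9 fibroblast and endothelial markers to 3.08 to 10.9 CPM, with 2 at 0. Most of the T cell sum was Lck (1.99 to 6.35 CPM), the only 1 of the 14 above the filter. Col1a1 (2.13 to 9.76 CPM) made up most of the fibroblast and endothelial sum. PBS library 2 stood apart for the synthesis enzymes: it was the highest of the 8 libraries for 7 of 7 enzymes and for 10 of the 12 other enzymes of the pathway, against 20.8% of all tested genes. Among the other sterol lists it was the highest for 5 of 11 sensing genes, 2 of 12 transport genes and 0 of 7 tested liver X receptor and oxysterol genes. The enzymes' fold changes against PBS, and the medians of the sterol lists that are closest to them, are therefore given with and without PBS library 2.

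None of the 7 enzymes passed the test in any comparison of EV-treated with PBS-treated cells. All of them averaged lower with each kind of EV than with PBS, by 0.05 to 1.12 on the log2 scale, and the median was -0.53 with DNase-ATEVs, -0.33 with ATEVs and -0.41 with NTEVs. Idi1 was the gene farthest below PBS, and the only enzyme of the 7 for which all 6 EV-treated libraries lay below both PBS libraries. The share of all tested genes with all 6 below was not counted. In a single comparison both EV libraries lay below for 30.9% of them with DNase-ATEVs, 27.3% with ATEVs and 30.9% with NTEVs. Without PBS library 2 the 7 enzymes no longer lay on one side of PBS. Those 3 comparisons share the same PBS libraries, so their directions are not independent of each other.

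Hmgcs1, which condenses acetoacetyl-CoA and acetyl-CoA into HMG-CoA, stood at 188 and 214 CPM with DNase-ATEVs, 226 and 293 CPM with ATEVs, 252 and 238 CPM with NTEVs, and 278 and 373 CPM with PBS. Both DNase-ATEV libraries and both NTEV libraries lay below both PBS libraries, and 1 ATEV library lay among them. With DNase-ATEVs the mean was 201 ± 17.8 CPM, against 326 ± 67.1 CPM with PBS (SD, n = 2 each), a log2 fold change of -0.70 ± 0.19 (SE; 95% interval -1.15 to -0.25; edgeR quasi-likelihood adjusted p = 0.0949). It was -0.48 without PBS library 2 and -0.91 without PBS library 1, and DESeq2 called it with an adjusted p of 0.0339. The log2 fold change against PBS was -0.33 with ATEVs (edgeR adjusted p = 0.364) and -0.41 with NTEVs (edgeR adjusted p = 0.287), and without PBS library 2 it was -0.10 with ATEVs and -0.19 with NTEVs. The Hmgcs1 transcripts hold 43.1% GC, against a median of 49.7% over tested genes, and with offsets for transcript GC the log2 fold change was -0.54 with DNase-ATEVs, -0.15 with ATEVs and -0.22 with NTEVs.

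Idi1, the isomerase that makes dimethylallyl diphosphate, stood at 14.9 and 18.1 CPM with DNase-ATEVs, 16.3 and 15.2 CPM with ATEVs, 16.9 and 12.0 CPM with NTEVs, and 22.5 and 40.6 CPM with PBS. No EV-treated library reached the lower PBS library, while the PBS libraries themselves differed 1.81-fold. The log2 fold change against PBS was -0.93 ± 0.30 with DNase-ATEVs, -1.001 ± 0.30 with ATEVs and -1.12 ± 0.31 with NTEVs (SE). The edgeR adjusted p was 0.128 with DNase-ATEVs, 0.116 with ATEVs and 0.135 with NTEVs, so these differences did not pass the test. DESeq2 called Idi1 lower in all 3 comparisons, with adjusted p of 0.0485 with DNase-ATEVs, 0.0337 with ATEVs and 0.0213 with NTEVs. Without PBS library 2 the log2 fold change was -0.45 with DNase-ATEVs, -0.52 with ATEVs and -0.63 with NTEVs, and no adjusted p was under 0.05. Idi1 transcripts hold 41.9% GC, and with GC offsets the log2 fold change was -0.74 with DNase-ATEVs, -0.79 with ATEVs and -0.88 with NTEVs. In RNA from a whole culture, fewer cells with a transcript and less of it per cell cannot be told apart.

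Fdps, which builds farnesyl diphosphate, stood at 22.2 and 25.1 CPM with DNase-ATEVs, 18.3 and 21.95 CPM with ATEVs, 19.8 and 18.4 CPM with NTEVs, and 20.2 and 31.9 CPM with PBS. Only the NTEV libraries both lay below both PBS libraries. The log2 fold change against PBS was -0.14 with DNase-ATEVs, -0.37 with ATEVs and -0.45 with NTEVs, with edgeR adjusted p between 0.328 and 0.736. Without PBS library 2 it was 0.22 with DNase-ATEVs, -0.0059 with ATEVs and -0.082 with NTEVs. Fdps counts are uncertain, since 5 processed pseudogenes at other loci match its transcripts at 90% identity or more over at least 200 bases, and 3 of them (Gm3571, Gm8163 and Gm5873) have counts of their own in the table.

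Of the counts given to Fdps and these 3 copies together, the copies held 16.2 and 15.2% in the DNase-ATEV libraries, 24.7 and 18.0% in the ATEV libraries, 17.9 and 22.05% in the NTEV libraries, and 9.90 and 7.33% in the PBS libraries. All 6 EV-treated libraries lay above both PBS libraries. The lowest Wilson 95% bound among EV-treated libraries, 13.2%, lay above the highest bound among PBS libraries, 11.8% (these intervals cover counting error only). With the copies added to Fdps, a choice made after seeing the data, the log2 fold change against PBS was -0.02 with DNase-ATEVs, -0.15 with ATEVs and -0.25 with NTEVs. Whether the share reflects reads of Fdps placed at its copies or transcripts of the copies was not tested. Copies of Idi1 held at most 1.22% of its counts in any library, and the copy of Fdft1 at most 0.224%.

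**Figure D1:**
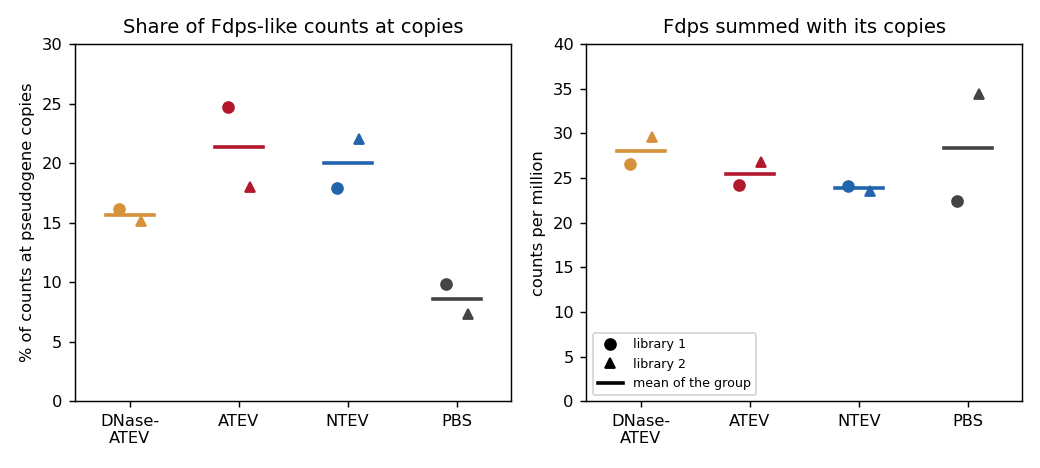
Left, share of the counts of Fdps and its 3 counted pseudogene copies that was given to the copies (percent, y axis); right, TMM-scaled CPM of Fdps summed with these copies (y axis), per library (points, with the group mean as a bar) by group (x axis). On the left the 6 EV-treated libraries lie between 15.2 and 24.7%, above both PBS libraries at 9.90 and 7.33%, and on the right the PBS libraries are the lowest (22.4 CPM) and the highest (34.4 CPM) of the 8.

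Fdft1, squalene synthase, stood at 119 and 134 CPM with DNase-ATEVs, 128 and 146 CPM with ATEVs, 137 and 145 CPM with NTEVs, and 133 and 178 CPM with PBS. Each EV group overlapped PBS. The log2 fold change against PBS was -0.30 with DNase-ATEVs, -0.18 with ATEVs and -0.14 with NTEVs, with edgeR adjusted p between 0.306 and 0.639. Leaving out PBS library 2 gave -0.083 with DNase-ATEVs, 0.044 with ATEVs and 0.085 with NTEVs. Fdft1 overlaps the protease gene Ctsb on the other strand, and the strand setting of the counting is not given in the sources used here, so its level is uncertain. The same holds for Cyp51, which overlaps Akap9, and Lss, which overlaps 4930483K19Rik. Hmgcs1 and Idi1 are also overlapped on the other strand, by Gm48342 and Gm48574, which have no counts of their own here.

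Sqle, the oxygenase that makes squalene epoxide and a slow step of the pathway, stood at 217 and 217 CPM with DNase-ATEVs, 267 and 265 CPM with ATEVs, 270.4 and 223 CPM with NTEVs, and 242 and 384 CPM with PBS. Both DNase-ATEV libraries lay below both PBS libraries, and the other EV groups overlapped PBS. The log2 fold change against PBS was -0.53 ± 0.22 with DNase-ATEVs (SE; edgeR adjusted p = 0.192), -0.24 with ATEVs and -0.34 with NTEVs. Leaving out PBS library 2 gave -0.17 with DNase-ATEVs, 0.13 with ATEVs and 0.023 with NTEVs.

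Lss, the cyclase that closes the sterol rings, stood at 226 and 230.3 CPM with DNase-ATEVs, 229 and 248 CPM with ATEVs, 256 and 228 CPM with NTEVs, and 199 and 303 CPM with PBS. The PBS libraries were the lowest and the highest of the 8, so the whole EV range lay between them. Log2 fold changes against PBS were -0.14 with DNase-ATEVs, -0.08 with ATEVs and -0.05 with NTEVs, and all 3 were positive without PBS library 2 (0.18 with DNase-ATEVs, 0.25 with ATEVs and 0.28 with NTEVs).

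Cyp51, the lanosterol demethylase, stood at 379.9 and 372 CPM with DNase-ATEVs, 383 and 430.3 CPM with ATEVs, 448 and 398 CPM with NTEVs, and 422 and 707 CPM with PBS. Both DNase-ATEV libraries lay below both PBS libraries. PBS library 2 lay 1.68-fold above PBS library 1, while no pair of EV-treated libraries of a group differed by more than 1.12-fold. The log2 fold change against PBS was -0.59 ± 0.23 with DNase-ATEVs (SE; edgeR adjusted p = 0.180), -0.47 with ATEVs and -0.42 with NTEVs. Leaving out PBS library 2 gave -0.18 with DNase-ATEVs, -0.056 with ATEVs and 9.94e-05 with NTEVs.

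**Figure D2:**
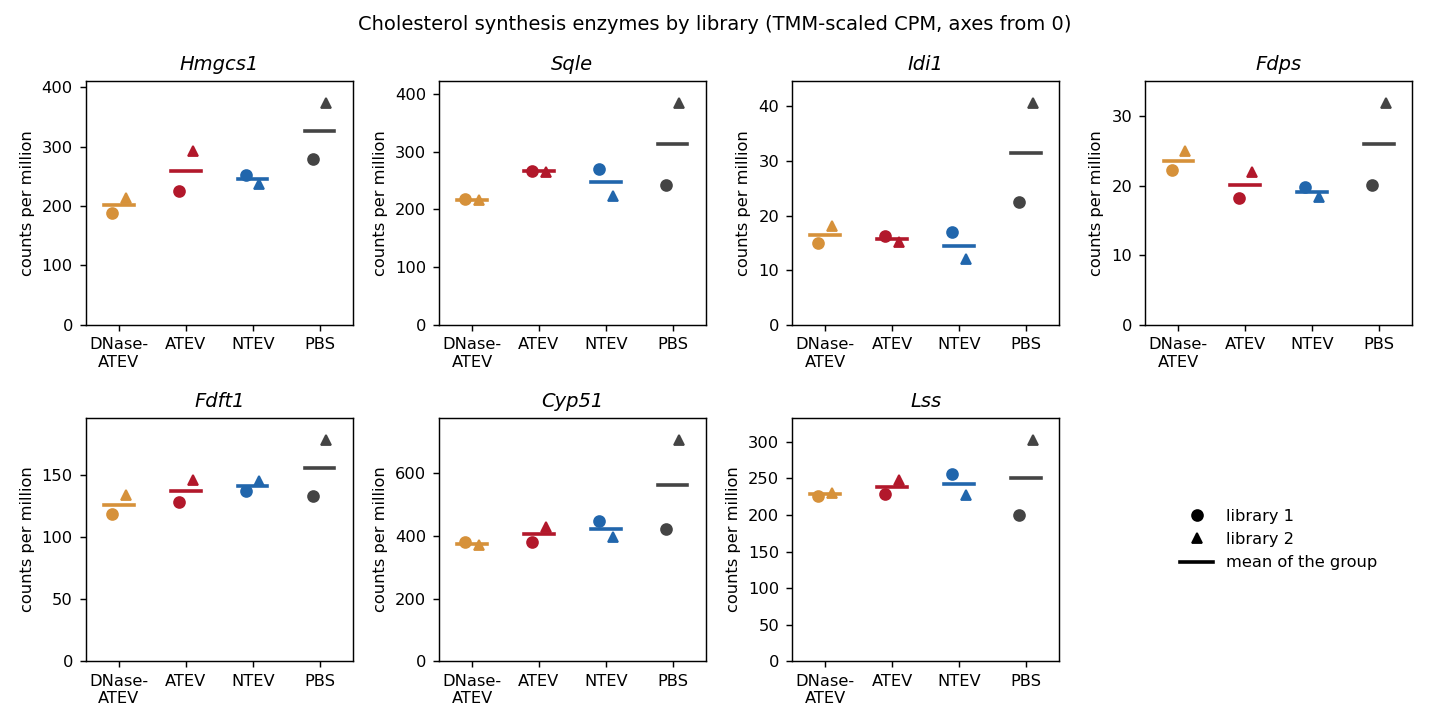
TMM-scaled CPM (y axis of each panel, starting at 0) of the 7 enzymes in each library, by group (x axis). Points are libraries and bars their mean. PBS library 2 is the highest point in all 7 panels, and Idi1 is the only panel in which all 6 EV-treated libraries lie below both PBS libraries.

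Against PBS, 0 of 7 enzymes passed edgeR's test with DNase-ATEVs, where 3.01% of tested genes did. At an unadjusted p under 0.05, 4 were lower (Hmgcs1, Idi1, Sqle and Cyp51) against 10.9% of tested genes, and DESeq2 called 2 (Hmgcs1 and Idi1; 11.6% of tested genes). With ATEVs 0 of 7 passed edgeR's test, where 5.19% of tested genes did, 1 was lower at an unadjusted p under 0.05 (Idi1; 10.3% of tested genes) and DESeq2 called 1 (Idi1; 10.8%). With NTEVs 0 of 7 passed, where 1.11% of tested genes did, 1 was lower at an unadjusted p under 0.05 (Idi1; 8.85% of tested genes) and DESeq2 called 1 (Idi1; 6.47%). These unadjusted counts rest on both PBS libraries. Without PBS library 2 the log2 fold change with DNase-ATEVs shrank to -0.48 for Hmgcs1, -0.45 for Idi1, -0.17 for Sqle and -0.18 for Cyp51. Medians over the 7 enzymes without each PBS library are given below. Groups that did not overlap, with the EV libraries below, were found for 4 enzymes with DNase-ATEVs (30.9% of tested genes), 1 with ATEVs (27.3%) and 3 with NTEVs (30.9%). With 2 libraries a group an exact permutation test of 1 gene cannot give a p under 0.333. The single enzyme at an unadjusted p under 0.05 with ATEVs or NTEVs is near the share over all genes.

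Log2 fold changes against PBS were below 0 for 7 of 7 enzymes with each kind of EV, against 50% of tested genes with DNase-ATEVs, 51.7% with ATEVs and 50.1% with NTEVs. The median over all tested genes was within 0.02 of 0 in each. Without PBS library 2, 5 of 7 stayed below 0 with DNase-ATEVs, 4 with ATEVs and 3 with NTEVs, and the medians were -0.17 with DNase-ATEVs, -0.0059 with ATEVs and 9.94e-05 with NTEVs. Without PBS library 1 all 7 were below 0 in the 3 comparisons, with medians of -0.84 with DNase-ATEVs, -0.54 with ATEVs and -0.65 with NTEVs. No enzyme passed edgeR's test with either PBS library left out. The size of the difference from PBS, and for 5 of the 7 enzymes its sign in at least 1 comparison, thus turned on which PBS library was kept.

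**Figure D3:**
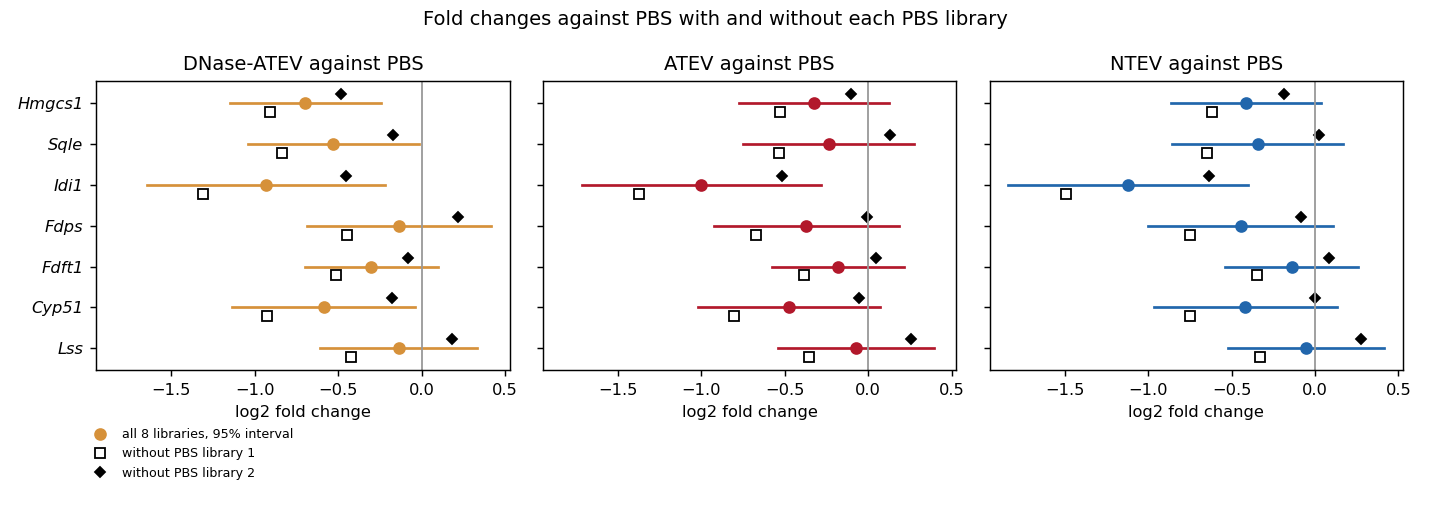
Log2 fold change of the 7 enzymes against PBS (x axis) in 1 panel per kind of EV, with all 8 libraries (coloured points, 95% intervals as bars), without PBS library 1 (open squares) and without PBS library 2 (diamonds). Every coloured point and square lies left of 0, while diamonds lie on both sides, and among the bars those of Idi1 in all 3 panels and of Hmgcs1, Sqle and Cyp51 with DNase-ATEVs exclude 0 although no adjusted p is under 0.05.

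For the 7 enzymes the spread between replicates was wider in PBS than with EVs. Over all genes with at least 20 counts it was not, with a chi-square per gene of 100.4 with DNase-ATEVs, 145 with ATEVs, 92.0 with NTEVs and 39.0 with PBS. The log2 ratio of PBS library 2 to library 1 had a median of 0.66 over the 7 enzymes (from 0.42 in Hmgcs1 to 0.85 in Idi1). It was 0.51 over the 12 other enzymes and 0.02 over all tested genes, where scaling holds such a median near 0. A larger PBS ratio, in either direction, was found in 25.8% of tested genes for Hmgcs1 and 9.94% for Idi1. In the EV groups the ratio of library 2 to library 1 had a median over the 7 enzymes of 0.17 with DNase-ATEVs, 0.17 with ATEVs and -0.17 with NTEVs. The mean of the 7 enzymes, each centred on its own mean log2 CPM, was -0.20 and -0.09 in the DNase-ATEV libraries, -0.13 and 0.02 in the ATEV libraries, -0.01 and -0.18 in the NTEV libraries, and -0.02 and 0.61 in PBS libraries 1 and 2. PBS library 1 thus lay inside the range of the EV-treated libraries. The 12 other enzymes gave -0.12 and -0.06 in the DNase-ATEV libraries, -0.06 and 0.08 in the ATEV libraries, 0.02 and -0.14 in the NTEV libraries, and -0.12 and 0.41 in PBS libraries 1 and 2. PBS library 2 was also the shallowest library, and the part of depth was not tested. Its lowest count for an enzyme was 1050 (Fdps).

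**Figure D4:**
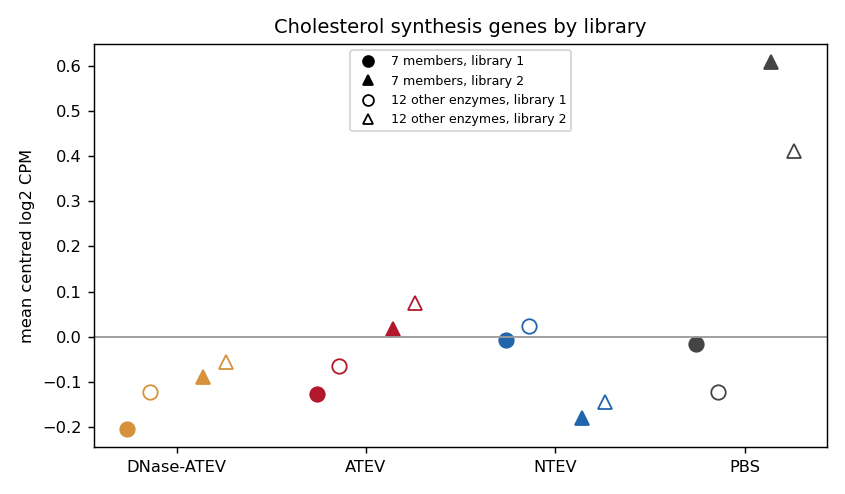
Mean of centred log2 CPM (y axis) over the 7 enzymes (filled) and over the 12 other cholesterol synthesis enzymes (open) in each library, by group (x axis). PBS library 2 lies at 0.61 and 0.41, and the other 7 libraries lie between -0.20 and 0.08.

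Against untreated ATEVs, DNase-ATEVs gave 0 of 7 calls by edgeR, where 0.665% of tested genes passed, and 0 at an unadjusted p under 0.05 or by DESeq2, which called 2.85% of the genes it gave an adjusted p. Hmgcs1, Sqle and Cyp51 had both DNase-ATEV libraries below both ATEV libraries (16.8% of tested genes did) and Fdps had both above (19.4%). Hmgcs1 averaged 201 ± 17.8 CPM with DNase-ATEVs and 260 ± 47.6 CPM with ATEVs (SD, n = 2 each), a log2 fold change of -0.37 with a 95% interval of -0.82 to 0.08 (edgeR adjusted p = 0.550). For Sqle it was -0.29, with an interval of -0.81 to 0.22. The median over the 7 was -0.11, against 0.01 over all tested genes.

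ATEVs against NTEVs gave 0 of 7 calls by edgeR as well, where 1.19% of tested genes passed, and 0 at an unadjusted p under 0.05 or by DESeq2, which called 3.14%. None of the 7 enzymes separated the groups without overlap, which 30% of tested genes did. Log2 fold changes lay between -0.06 (Cyp51) and 0.12 (Idi1), with a median of 0.07 against 0.01 over all tested genes. The interval for Idi1 was -0.59 to 0.83, so these data do not limit a difference between the EV sources closely.

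Per length of exon the enzymes kept nearly the same order in every library. CPM per kilobase of exon (RPKM) averaged 100.2 ± 25.0 for Cyp51, 56.1 ± 12.5 for Hmgcs1, 47.0 ± 9.86 for Sqle, 33.1 ± 4.20 for Fdft1 and 22.2 ± 2.82 for Lss (SD over 8 libraries of all groups), and each was above the next in 8 of 8 libraries. Idi1 at 5.58 ± 2.57 and Fdps at 5.28 ± 1.07 RPKM did not differ beyond their spread, with Idi1 above Fdps in 4 of 8 libraries. Exon lengths came from GENCODE M21 and include every annotated exon, so a gene with long unused exons is given too low a level. Idi1 matches the pseudogene Gm13502 at 100% identity over 684 bases. Fdps matches Gm43738, a gene that overlaps it on the same strand, at 100% over 929 bases. How reads from such stretches were counted is not given in the sources used here, so the levels of Idi1 and Fdps are uncertain.

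The 6 protein-coding genes whose log2 CPM followed the centred mean of the 7 enzymes most closely, of 8275 ranked, were Nudt4 (Pearson r = 0.960 over 8 libraries), Lgals3 (0.958), Ptgs2 (0.957), Tmem41b (0.955), Sc5d (0.949) and Kitl (0.940). All 8 libraries share their depth and scaling with the enzymes, and 1 library, PBS library 2, lies far from the rest in each. Ptgs2, which makes prostaglandins, stood at 224 and 216 CPM with DNase-ATEVs, 246 and 255 CPM with ATEVs, 258 and 196 CPM with NTEVs, and 228 and 426 CPM with PBS. Sc5d is itself a late enzyme of cholesterol synthesis. Of the 12 other enzymes, Pmvk ranked at 7, Acat2 at 13 and Hsd17b7 at 15, while Tm7sf2, a sterol reductase, had r = -0.03.

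In the list of 12 other enzymes of the pathway 0 passed edgeR's test in any of the 5 comparisons, and DESeq2 called 0. At an unadjusted p under 0.05, 2 were lower in each comparison of EVs with PBS, near the share over all tested genes (10.9% with DNase-ATEVs, 10.3% with ATEVs and 8.85% with NTEVs), and 0 had such a p in the other comparisons. Their median log2 fold change was -0.34 with DNase-ATEVs, -0.18 with ATEVs and -0.29 with NTEVs. With PBS library 2 left out these medians were -0.071 with DNase-ATEVs, 0.13 with ATEVs and 0.037 with NTEVs. With PBS library 1 left out they were -0.59 with DNase-ATEVs, -0.42 with ATEVs and -0.55 with NTEVs. Msmo1, a sterol methyl oxidase, stood at 397 and 369.7 CPM with DNase-ATEVs, 307 and 336 CPM with ATEVs, 338 and 292 CPM with NTEVs, and 365 and 595 CPM with PBS. Pmvk, which phosphorylates mevalonate phosphate, stood at 74.1 and 76.7 CPM with DNase-ATEVs, 73.2 and 77.1 CPM with ATEVs, 72.7 and 76.2 CPM with NTEVs, and 84.2 and 109 CPM with PBS. All 6 EV-treated libraries lay below both PBS libraries for Pmvk, with edgeR adjusted p above 0.05 throughout. The share of all tested genes with all 6 below was, as for Idi1, not counted.

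Among 11 genes of sterol sensing and SREBP processing, 0 passed edgeR's test in any comparison, and 0 had an unadjusted p under 0.05 between EV groups. Unadjusted p-values under 0.05 against PBS were found for 0 higher and 2 lower genes with DNase-ATEVs, 2 higher and 1 lower with ATEVs, and 2 higher and 2 lower with NTEVs. Over all tested genes these shares were 13.7% higher and 10.9% lower with DNase-ATEVs, 11.6% higher and 10.3% lower with ATEVs, and 10.3% higher and 8.85% lower with NTEVs. The median log2 fold change of the list was -0.075 with DNase-ATEVs, -0.062 with ATEVs and 0.028 with NTEVs. Without PBS library 2 it was -0.085, -0.0014 and 0.042 in that order, and without PBS library 1 -0.18, -0.15 and -0.18. Srebf2, which encodes SREBP-2, stood at 629 and 713 CPM with DNase-ATEVs, 633 and 735 CPM with ATEVs, 725 and 787 CPM with NTEVs, and 542 and 542 CPM with PBS. All 6 EV-treated libraries lay above both PBS libraries, but the share of all tested genes with all 6 above was not counted. The largest difference for Srebf2, with NTEVs, was 0.48 ± 0.14 on the log2 scale (SE; edgeR adjusted p = 0.148), which DESeq2 called. Mbtps2, the membrane protease that frees SREBPs, stood at 37.0 and 28.5 CPM with DNase-ATEVs, 34.2 and 29.9 CPM with ATEVs, 34.8 and 29.8 CPM with NTEVs, and 44.0 and 45.4 CPM with PBS. Srebf2 and Mbtps2 thus lay on opposite sides of PBS, and neither passed edgeR's test.

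Of 12 sterol transport genes, 1 rose with ATEVs against PBS, where 3.52% of tested genes did: Soat1, which esterifies cholesterol for storage. Soat1 stood at 150.3 and 188 CPM with DNase-ATEVs, 271 and 312 CPM with ATEVs, 191 and 251 CPM with NTEVs, and 159.9 and 164 CPM with PBS. The ATEV libraries were the highest of the 8, and the DNase-ATEV libraries lay on both sides of PBS. With ATEVs the log2 fold change against PBS was 0.85 ± 0.18 (SE; edgeR adjusted p = 0.0444), and without any 1 of the 4 libraries the adjusted p lay between 0.0816 and 0.233. DNase-ATEVs against ATEVs gave -0.79 for Soat1, which edgeR did not call (adjusted p = 0.167) and DESeq2 did.

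Of 10 genes of the liver X receptor and oxysterol list, 7 were tested and 1 rose with ATEVs against PBS (3.52% of tested genes did) and with ATEVs against NTEVs (1.05%): Ch25h, which makes the oxysterol 25-hydroxycholesterol, a signal that holds SREBPs in the membrane. Ch25h had 15 and 14 counts with DNase-ATEVs, 31 and 103 counts with ATEVs, 1 and 0 counts with NTEVs, and 0 and 0 counts with PBS. Counts above 1 were thus found in the ATEV and DNase-ATEV libraries alone. Against a floor of 3 counts over the PBS group it was at least 10.0-fold higher with DNase-ATEVs (edgeR adjusted p = 0.0692) and at least 43.2-fold higher with ATEVs (edgeR adjusted p = 0.0205). The edgeR adjusted p with ATEVs was 0.125 without PBS library 1 and 0.107 without PBS library 2. ATEVs against NTEVs gave a ratio of 140.2 (95% interval 24.7 to 5578, which covers counting error only and not the spread between the ATEV libraries; edgeR adjusted p = 0.0492), a call lost without ATEV library 2 (0.0828), NTEV library 1 (0.265) or NTEV library 2 (0.240). DNase-ATEVs against ATEVs gave a ratio of 0.232 (95% counting interval 0.150 to 0.348), with an edgeR adjusted p of 0.333. Nr1h2, a liver X receptor, stood at 82.0 and 104 CPM with DNase-ATEVs, 98.7 and 107 CPM with ATEVs, 79.0 and 102 CPM with NTEVs, and 68.2 and 56.2 CPM with PBS. The groups given EVs did not overlap PBS for Nr1h2, which edgeR called in no comparison and DESeq2 called with ATEVs against PBS. How many of all tested genes did the same was not counted.

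**Figure D5:**
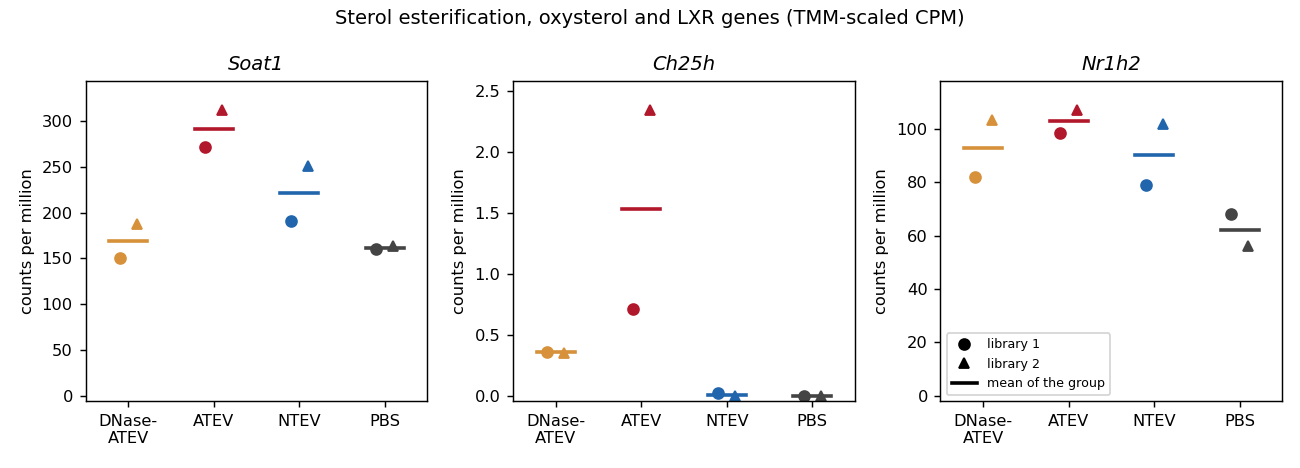
TMM-scaled CPM (y axis of each panel) of Soat1, Ch25h and Nr1h2 in each library (points, with the group mean as a bar), by group (x axis). Soat1 is highest in the 2 ATEV libraries (271 and 312), Ch25h has counts above 1 only in the DNase-ATEV and ATEV libraries, and for Nr1h2 all 6 EV-treated libraries lie above both PBS libraries.

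Of 15 genes of the isoprenoid branches, which use the products of Idi1 and Fdps, 14 were tested and 1 fell with ATEVs against PBS, where 1.66% of tested genes did: Chm, an escort protein for the prenylation of Rab proteins. Chm stood at 38.9 and 40.2 CPM with DNase-ATEVs, 36.1 and 42.4 CPM with ATEVs, 44.3 and 44.3 CPM with NTEVs, and 58.5 and 64.7 CPM with PBS. All 6 EV-treated libraries lay below both PBS libraries, a pattern whose share over all tested genes was not counted. With ATEVs the log2 fold change against PBS was -0.65 ± 0.14 (SE; edgeR adjusted p = 0.0428), but -0.17 with GC offsets (adjusted p = 0.609), and without any 1 of the 4 libraries the adjusted p lay between 0.0916 and 0.248. Zmpste24, which trims prenylated proteins, stood at 86.7 and 68.9 CPM with DNase-ATEVs, 91.6 and 80.3 CPM with ATEVs, 94.8 and 73.6 CPM with NTEVs, and 127 and 139 CPM with PBS. EdgeR called Zmpste24 in no comparison, and DESeq2 called it lower in the 3 comparisons with PBS. DESeq2 also called Chm lower with ATEVs, and with DNase-ATEVs Chm, Nus1 and Pggt1b lower and Rabggta higher. At an unadjusted p under 0.05 against PBS, 5 were lower and 1 higher with DNase-ATEVs (10.9% and 13.7% of tested genes). With ATEVs 3 were lower (10.3%), and with NTEVs 3 (8.85%). Median log2 fold changes were -0.39 with DNase-ATEVs, -0.19 with ATEVs and -0.29 with NTEVs. Without PBS library 2 they were -0.29, -0.13 and -0.23.

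Of 13 fatty acid synthesis genes, which answer mainly to SREBP-1, 12 were tested and 0 passed edgeR's test in any comparison. At an unadjusted p under 0.05, 3 were lower with DNase-ATEVs than with PBS (10.9% of tested genes were), 3 were lower with DNase-ATEVs than with ATEVs (4.97%), and 1 was higher with ATEVs than with PBS (11.6%). The median log2 fold change with DNase-ATEVs against PBS was -0.30, and it was -0.23 without PBS library 2 and -0.32 without PBS library 1. With all 8 libraries it was 0.010 with ATEVs and -0.030 with NTEVs. DESeq2 called Fads2 in the comparison of DNase-ATEVs with ATEVs. Fads2, a fatty acid desaturase, stood at 174 and 172 CPM with DNase-ATEVs, 239.6 and 245 CPM with ATEVs, 216 and 192 CPM with NTEVs, and 203 and 235 CPM with PBS. The DNase-ATEV libraries were the lowest of the 8. Acly, which supplies cytosolic acetyl-CoA, stood at 513 and 432 CPM with DNase-ATEVs, 577 and 578 CPM with ATEVs, 637 and 571 CPM with NTEVs, and 574 and 655 CPM with PBS.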

How the data were processed

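RNA sequencing libraries (stranded mRNA, per the labels' protocols) were measured in 4 groups of 2. Tools listed in the submitters' processing notes, with no role, are Cufflinks 2.1.1, TopHat2 2.0.11, TopHat and bcl2fastq 2.19, with the build mm9. How reads were assigned to genes (program, strand, gene models) is not given in the sources used here. What the authors deposited are whole-number counts per gene, keyed by Ensembl identifiers, of which 42250 of 42687 were matched to a symbol (GENCODE M21). Part of the genotype is not reported here. The members and gene lists were chosen with earlier results of these data known.

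Counts were fitted in R 4.3.3 with edgeR 4.0.16 (filter on expression by group, TMM scaling, quasi-likelihood test, a mean per group over all 8 libraries, 4 residual degrees of freedom, common biological coefficient of variation 0.226). Two-sided p-values were adjusted over all tested genes by the Benjamini-Hochberg method within each of 5 comparisons, with a threshold of 0.05. The fit was tested on simulated data. CPM are TMM-scaled. Alternatives were DESeq2 1.42.0, its size factors in edgeR, no filter, a replicate block, GC offsets, leaving out each library, and, added later, Fdps summed with its copies (BLAST 2.17.0). Replicates were not duplicates of one library (chi-square per gene 39.0 to 145), but no label says that their cultures were separate, and p-values then measure only the spread between these samples, which may be technical. All 7 members were named in every comparison. List genes were named if they passed the test, and otherwise from the 2 with the smallest p in a comparison. The 6 most alike genes were ranked among tested protein-coding genes with a mean log2 CPM of at least 4 (prior count 2).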

Additional observations from a re-analysis of the deposited data

How the results depend on the processing

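Comparisons run in the order DNase-ATEV against PBS, ATEV against PBS, NTEV against PBS, ATEV against NTEV, DNase-ATEV against ATEV. The 458, 788, 169, 181 and 101 genes called became 1764, 1637, 983, 477 and 417 with DESeq2, 1520, 1454, 773, 459 and 343 with no filter on low counts, and ranged from 11 to 68, 131 to 401, 5 to 28, 71 to 166 and 27 to 99 without 1 library. Members called became 2 (Hmgcs1 and Idi1), 1 (Idi1) and 1 (Idi1) against PBS with DESeq2 and with no filter, and were 0 without any 1 library and with size factors or GC offsets. Replicate numbers do not pair the libraries by label. Deviations of same-numbered libraries correlated at 0.485 to 0.552 between EV groups and at -0.236 to -0.141 between EV groups and PBS. With the replicate number as a block 1052, 1182, 330, 255 and 127 genes were called, and 1 member (Hmgcs1 with DNase-ATEVs against PBS, edgeR adjusted p = 0.0464), and with block and GC offsets 0. The Soat1 and Ch25h calls held with the block, and Chm (0.0301) only without GC offsets. Chm missed the threshold with size factors (edgeR adjusted p = 0.0533) and with no filter (0.0582), and Ch25h, ATEV against NTEV, with size factors (0.0505). Signs turned in uncalled members without 1 library, where the log2 fold change ranged, DNase-ATEV against PBS, from -0.44 to 0.22 (Fdps) and -0.42 to 0.18 (Lss), ATEV against PBS from -0.54 to 0.13 (Sqle), -0.39 to 0.044 (Fdft1) and -0.35 to 0.25 (Lss), and NTEV against PBS from -0.65 to 0.023 (Sqle), -0.34 to 0.085 (Fdft1), -0.75 to 9.94e-05 (Cyp51) and -0.33 to 0.28 (Lss). The high ends were reached without PBS library 2 and the low ends without PBS library 1, and Lss also turned without ATEV library 1 (0.024), without NTEV library 2 (0.029) and with block and GC offsets for NTEV against PBS (0.0067). ATEV against NTEV ranged from -0.11 to 0.28 (Hmgcs1), -0.023 to 0.24 (Sqle), -0.11 to 0.38 (Idi1), -0.060 to 0.22 (Fdps), -0.13 to 0.068 (Fdft1), -0.14 to 0.047 (Cyp51) and -0.11 to 0.055 (Lss), and DNase-ATEV against ATEV from -0.10 to 0.21 (Idi1). The cause was not tested. A group left with 1 library is assumed to vary like the others. The lowest count of a member was 484 (Idi1), and the part of depth was not tested.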

Other observations

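Gramd1c, a sterol transfer protein, stood at 6.87 and 8.34 CPM with DNase-ATEVs and 3.79 and 3.90 CPM with ATEVs, against 6.57 and 6.62 CPM with NTEVs and 6.33 and 7.45 CPM with PBS. It was lowest in the 2 ATEV libraries, and edgeR called it in no comparison (DNase-ATEVs against ATEVs, adjusted p = 0.143), whereas DESeq2 called it in the comparisons of ATEVs with PBS and with NTEVs and of DNase-ATEVs with ATEVs. Gramd1a, of the same family, stood at 13.1 and 15.6 CPM with DNase-ATEVs, 13.1 and 14.4 CPM with ATEVs, and 11.7 and 17.0 CPM with NTEVs, against 8.33 and 4.95 CPM with PBS. All 6 EV-treated libraries lay above both PBS libraries for Gramd1a, which DESeq2 called in the 3 comparisons with PBS and edgeR in none. Apoe, which carries lipids out of cells, stood at 2.86 and 4.68 CPM with DNase-ATEVs, 2.62 and 1.39 CPM with ATEVs, and 1.29 and 1.49 CPM with NTEVs, against 0.680 and 1.19 CPM with PBS. All 6 EV-treated libraries lay above both PBS libraries. How many of all tested genes lay above PBS in this way, as Gramd1a and Apoe did, was not counted. With DNase-ATEVs against PBS the log2 fold change of Apoe was 2.03 ± 0.46 (SE; edgeR adjusted p = 0.0630), and DESeq2 called it.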
